A study of Mus musculus with 30 samples.

Results

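Beta-cell disallowed genes are housekeeping genes that most tissues transcribe and that mature pancreatic beta-cells keep low. The 10 genes described here were chosen by name (Hk1, Ldha, Slc16a1, Oat, Cat, Zyx, Acot7, Igfbp4, Lmo4 and Cxcl12), all 10 were found among the 17775 genes of the table, and all 10 passed the filter on low values. They were followed in RNA-seq of 30 bulk libraries of sorted mouse islet cells, to ask whether genes that are low in beta-cells are also low in alpha-cells made to express the beta-cell transcription factor Pdx1.

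The alpha Pdx1 DT libraries (n = 6) came from mice carrying Glucagon-rtTA, TetO-Cre, R26YFP, CAG-Pdx1 and RIP-DTR, given diphtheria toxin (DT) at 2 months and collected 30 days later. The alpha Pdx1 libraries (n = 5) came from Glucagon-rtTA, TetO-Cre, R26YFP and CAG-Pdx1 mice of 3 months without toxin. The alpha DT libraries (n = 4) came from Glucagon-Venus mice with RIP-DTR, treated with toxin on the same schedule. The beta libraries (n = 7) came from Insulin-mCherry mice and the alpha libraries (n = 8) from Glucagon-Venus mice, both of 3 months. RIP-DTR places the diphtheria toxin receptor under the rat insulin promoter, so that the toxin kills beta-cells. Glucagon-rtTA, TetO-Cre and the reporter used for sorting differ along with Pdx1, so their effects cannot be told apart from that of Pdx1. The RIP-DTR transgene differs along with the toxin, and that pair cannot be told apart either. The labels do not say whether libraries of a group came from separate animals, so p-values measure the spread between libraries.

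Glucose-stimulated insulin secretion depends on pyruvate from glucose entering the mitochondria. A high-affinity hexokinase (Hk1), lactate dehydrogenase A (Ldha) and a plasma membrane lactate and pyruvate carrier (Slc16a1) would couple secretion to other signals, which is why these genes are called disallowed. The other members serve amino acid, peroxide and acyl-CoA metabolism (Oat, Cat, Acot7), the cytoskeleton (Zyx), growth factor binding (Igfbp4), transcription (Lmo4) and chemokine signalling (Cxcl12).

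Upstream sequences of 4 genes are shown, because the comparison with Pdx1 turned on them: Hk1, Oat, Igfbp4 and Slc16a1. Each is the 250 bases before a RefSeq transcript start (build GRCm38.p6), read along the gene's strand. The windows are chr10:62340422-62340671 on the minus strand for Hk1 (the start inside the annotated gene), chr7:132576399-132576648 on the minus strand for Oat, chr11:99040994-99041243 on the plus strand for Igfbp4 and chr3:104638414-104638663 on the plus strand for Slc16a1. Capitals mark TAAT, the core that homeodomain factors such as Pdx1 recognise, or ACGTG, the core of hypoxia response elements and of many E-boxes, on either strand.
Hk1: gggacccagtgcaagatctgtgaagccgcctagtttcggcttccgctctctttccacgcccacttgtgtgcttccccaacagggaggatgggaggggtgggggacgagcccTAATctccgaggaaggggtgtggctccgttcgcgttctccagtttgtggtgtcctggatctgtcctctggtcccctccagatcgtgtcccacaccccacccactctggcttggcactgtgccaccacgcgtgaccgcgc
Oat: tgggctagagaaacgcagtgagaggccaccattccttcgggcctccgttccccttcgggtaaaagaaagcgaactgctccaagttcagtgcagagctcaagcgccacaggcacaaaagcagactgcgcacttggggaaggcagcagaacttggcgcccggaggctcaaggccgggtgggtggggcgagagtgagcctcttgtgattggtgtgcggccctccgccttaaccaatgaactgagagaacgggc
Igfbp4: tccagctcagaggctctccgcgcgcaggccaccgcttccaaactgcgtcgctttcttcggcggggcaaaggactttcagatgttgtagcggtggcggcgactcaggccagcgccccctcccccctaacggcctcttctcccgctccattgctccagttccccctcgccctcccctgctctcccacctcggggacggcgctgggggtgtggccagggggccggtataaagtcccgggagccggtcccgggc
Slc16a1: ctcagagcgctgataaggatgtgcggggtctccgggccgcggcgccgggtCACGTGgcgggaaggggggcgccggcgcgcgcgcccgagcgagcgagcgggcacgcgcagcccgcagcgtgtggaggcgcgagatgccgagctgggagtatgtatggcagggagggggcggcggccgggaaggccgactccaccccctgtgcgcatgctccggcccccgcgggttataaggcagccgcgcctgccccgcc

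RefSeq gave 14 such windows for the 10 genes, since some have several starts. For 11 of the 14, bases after the start were found in a GENCODE transcript of the gene, read in its direction. TAAT or its complement ATTA was in 4 of the 14 windows, in Hk1, Ldha, Zyx and Cxcl12, against 54.92% of 32851 windows of the same length over the genome outside chromosome 18. The 14 windows had a GC content of 49.6% to 82.4%. The share with a motif made of A and T depends on GC content, which was not matched between the sets. The longer TAATTA was in none of the 14 windows and in 4.84% of all windows. ACGTG or its complement CACGT was in 4 of the 14 windows, from Ldha, Slc16a1 and Lmo4, and in 16.57% of all windows. The palindrome CACGTG, which contains ACGTG, was in 2 of the 14 windows, those of Ldha and Slc16a1, and in 6.02% of all windows. The other Hk1 window, chr10:62379909-62380158, lies next to the annotated start of the gene and held no TAAT. The ACGTG in 2 of the Lmo4 windows is 1 stretch counted for each, since those windows overlap. Neither the Oat nor the Igfbp4 window held any of these letters.

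The table gives quantile-normalized log2 values from 0.758 to 22.565, so that levels compare between libraries for 1 gene but not between genes, whose lengths were not taken into account. It holds no read totals. Below the first quartile a library had between 32 and 111 distinct values, a number that depends on depth. Pdx1 checked the labels. It lay between 5.51 and 12.59 in alpha Pdx1 DT, between 8.61 and 11.83 in alpha Pdx1, between 3.71 and 6.70 in alpha DT, between 10.45 and 11.77 in beta, and between 3.66 and 11.23 in alpha libraries. Averaged over toxin it was 5.26 ± 0.81 higher with Pdx1 (SE, log2; limma, adjusted p = 0.00018). Of the marker lists, 6 of 6 alpha-cell genes were lower and 7 of 7 beta-cell genes higher in beta than in alpha libraries. These lists were chosen with earlier results of these data known. The same 5 libraries are set apart throughout. The library labelled alpha Pdx1 DT 5 had the lowest Pdx1 of its group (5.51) and correlated with alpha 4 at r = 0.993, the highest of 435 pairs. Its Ins1 was 12.1, near the 12.1 of alpha 4 and under the 18.6 to 19.3 of the other alpha Pdx1 DT libraries. Whether these libraries share RNA or one carries another's label cannot be told from the table, and every alpha Pdx1 DT value with all libraries includes it. The library labelled alpha 8 had Pdx1 at 11.23. Its Ins1 was 18.27, above the 11.61 to 14.96 of the other alpha libraries. Its level of the alpha-cell marker Ttr was 16.98, under their 19.87 to 20.54. Whether alpha 8 carries another group's label cannot be told, and every alpha value with all libraries includes it. Alpha Pdx1 5 had the lowest Pdx1 of its group (8.61), and beta 1 and beta 5 had the glucagon gene Gcg at the top value of the table (22.57). Results whose call changed without these 5 libraries are given both ways.

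**Figure D1:**
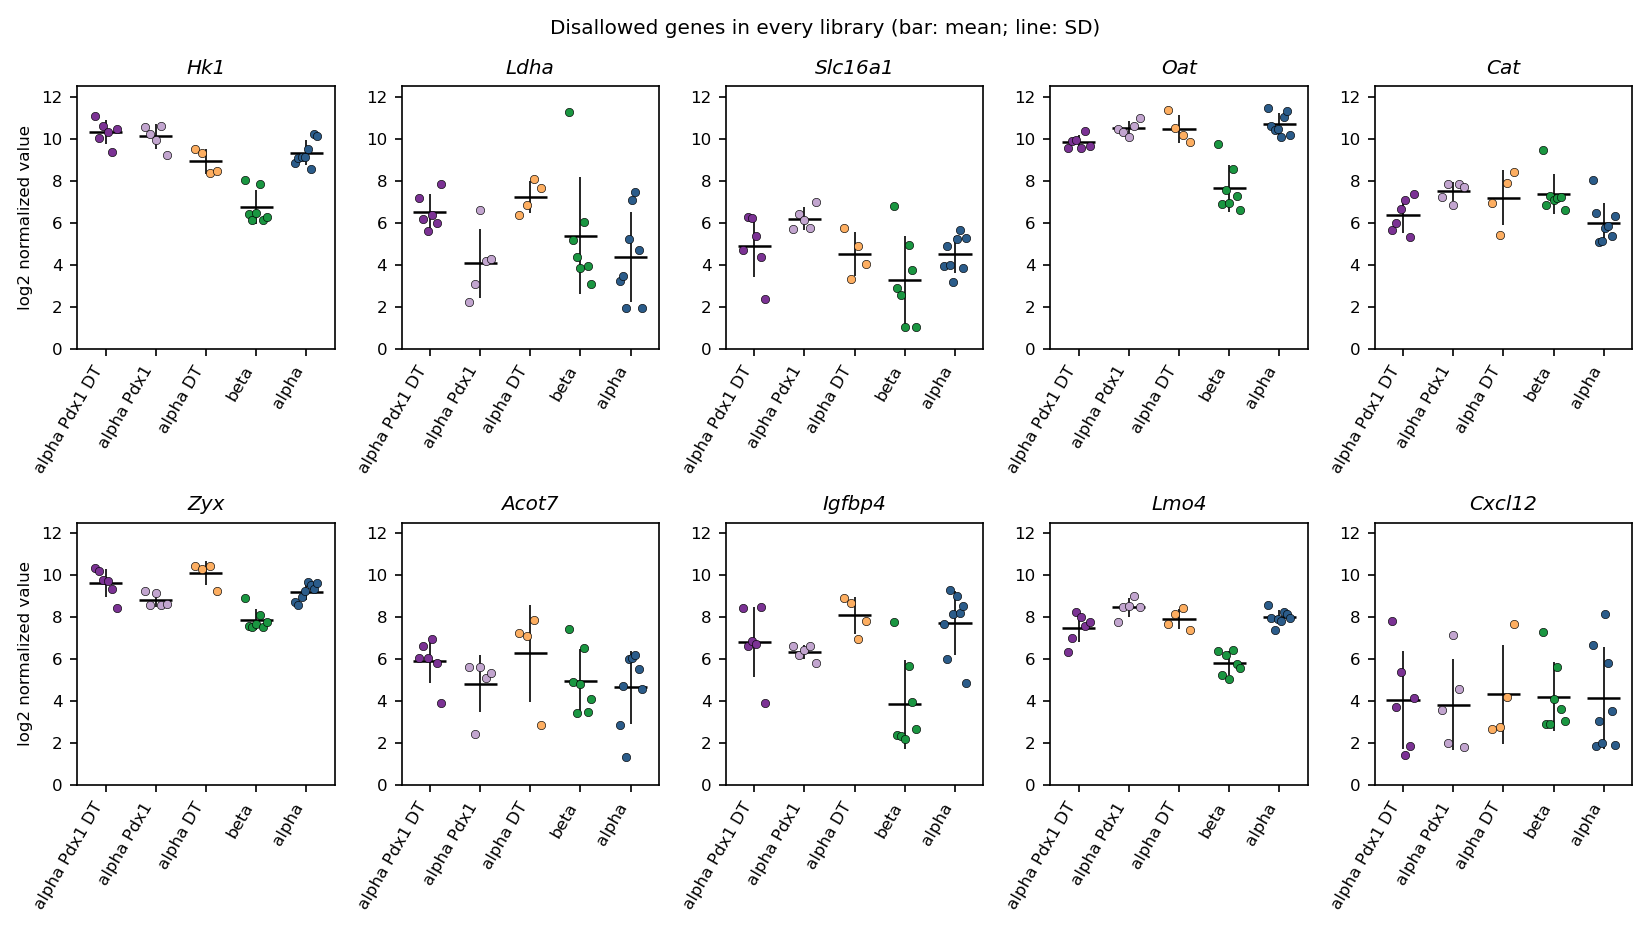
Normalized log2 value (vertical axis) of each of the 10 genes in every library (points) of the 5 groups (horizontal axis), with the group mean (bar) and SD (line). Hk1, Oat and Lmo4 in beta libraries lie below every alpha library, whereas Ldha, Acot7 and Cxcl12 spread over several log2 units within groups.

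In beta-cells against alpha-cells, 5 of the 10 genes were lower and 1 was higher at an adjusted p under 0.05, while 34.5% of all 16633 genes tested were called (17.6% lower, 16.9% higher). These calls over all genes were 2804 higher and 2930 lower, and became 1023 higher and 8653 lower when libraries were scaled to 9 housekeeping genes, which moved the median of all genes by -0.68. The genes called lower were Hk1, Oat, Zyx, Igfbp4 and Lmo4, and the gene called higher was Cat. The median log2 fold change of the 10 genes was -1.28, against 0.00 for all genes tested (values of all genes are centred by the normalization). Ldha, Slc16a1, Acot7 and Cxcl12 did not pass. Since the genes were chosen as known beta-cell disallowed genes, these counts describe them and call nothing particular to them. The same holds wherever groups are said not to overlap, since the share of all genes without overlap was not counted.

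Hk1 (chr10:62268855-62379908, minus strand, GRCm38, GENCODE M21) phosphorylates glucose at low concentrations. Its log2 values in beta libraries were 6.11 at the lowest, 6.39 at the median and 8.05 at the highest, and in alpha libraries 8.54, 9.13 and 10.22. No beta library reached any alpha library, and the difference was -2.58 ± 0.31 (SE, limma, adjusted p = 5.8e-08).
Oat (chr7:132557478-132576398, minus strand), the mitochondrial aminotransferase of ornithine, lay at 6.59, 7.25 and 9.73 (lowest, median, highest) in beta and at 10.06, 10.53 and 11.46 in alpha libraries. Again the groups did not overlap, with a difference of -3.04 ± 0.33 (adjusted p = 7.72e-09). The Oat annotation overlaps that of Fgfr2 on the same strand, and how reads in the overlap were assigned is not given in the sources used here.

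Lmo4 (chr3:144188530-144205220, minus strand) encodes a LIM-only protein that bridges transcription factors. It lay at 5.04, 5.76 and 6.44 in beta and at 7.39, 7.97 and 8.57 in alpha libraries, without overlap, a difference of -2.18 ± 0.28 (adjusted p = 1.61e-07).
Zyx (chr6:42349630-42360213, plus strand) encodes zyxin, a protein of focal adhesions and actin stress fibres. It lay at 7.52, 7.67 and 8.90 in beta and at 8.59, 9.30 and 9.65 in alpha libraries. Of the beta libraries, beta 1 alone was above the lowest alpha library, and the difference was -1.33 ± 0.26 (adjusted p = 0.000102). Zyx overlaps Epha1 on the opposite strand and it is not stated whether counting used strand, so reads of the overlap cannot be told apart.
Igfbp4 (chr11:99041244-99054392, plus strand) encodes a secreted protein that binds insulin-like growth factors. It lay at 2.18, 2.70 and 7.77 in beta and at 4.87, 8.18 and 9.28 in alpha libraries, a difference of -3.86 ± 0.75 (adjusted p = 0.000149). The 2 highest beta libraries were beta 1 (7.77) and beta 5 (5.66), which overlapped the alpha range.

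Cat (chr2:103453849-103485160, minus strand), the catalase that breaks down hydrogen peroxide, ran against the others. It lay at 6.61, 7.16 and 9.44 in beta and at 5.08, 5.79 and 8.01 in alpha libraries, a difference of 1.38 ± 0.45 (adjusted p = 0.016). All 7 beta libraries were above the alpha mean, but the call was lost without beta 1 (1.04, adjusted p = 0.0593), without the 5 libraries set apart (1.06, adjusted p = 0.0907) and under housekeeping scaling (0.71, adjusted p = 0.186).
Slc16a1 (chr3:104638668-104658462, plus strand), the monocarboxylate carrier known as MCT1, lay at 1.03, 2.91 and 6.80 in beta and at 3.18, 4.45 and 5.67 in alpha libraries. In beta 4 and beta 7 (1.03 each) and in alpha Pdx1 DT 6 (2.35) it was at the lowest value of the whole library. That floor ran from 0.758 to 2.348 over the libraries, so differences that use these values depend on it. The difference of -1.22 ± 0.67 did not pass (adjusted p = 0.163), and it passed without beta 1 (-1.80, adjusted p = 0.0214) and without all 5 (-2.14, adjusted p = 0.0102). With all libraries kept it passed in limma with library weights (-1.44, adjusted p = 0.0237). It also passed under housekeeping scaling (-1.89, adjusted p = 0.0146), which shifted all genes as given above.

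Ldha (chr7:46841475-46855627, plus strand), which turns pyruvate into lactate, lay at 3.07, 4.37 and 11.27 in beta and at 1.93, 4.07 and 7.46 in alpha libraries. The difference of 1.02 ± 0.94 did not pass (adjusted p = 0.431), and it was -0.64 without the 5 libraries set apart (adjusted p = 0.573). The highest value belonged to beta 1. The pseudogene Ldha-ps2 has a row of its own in the table, so the split of shared reads is uncertain.
Acot7 (chr4:152178134-152271855, plus strand), a cytosolic thioesterase of acyl-CoA, differed by 0.29 ± 0.77 (adjusted p = 0.805). Cxcl12 (chr6:117168535-117181367, plus strand), the chemokine ligand of Cxcr4, differed by 0.09 ± 1.06 (adjusted p = 0.962). Within groups these genes spanned wide ranges, from 1.36 to 6.21 for Acot7 and from 1.89 to 8.16 for Cxcl12 in alpha libraries. A difference of 1 log2 unit was within the error of both.

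Library beta 1 carried the highest beta value of 9 of the 10 genes and was second to beta 5 for Lmo4. Its mean over the 10 genes was 8.31, against 4.68 for the lowest beta library. It was also the beta library with the highest mean over the duct (9.83), endothelial (8.24), leukocyte (11.1) and mesenchymal (5.57) marker lists. The same was true of the acinar (14.96) and delta-cell (13.38) lists and of the pancreatic polypeptide gene (16.47). Its mean over the alpha-cell list was 13.06, second to 13.30 in beta 5, while the other beta libraries had 8.86 to 9.90. The part of these markers in the values of beta 1 was not tested. With and without it, the 5 genes called lower in beta-cells passed.

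In alpha Pdx1 against alpha libraries, 0 of the 10 genes were called by limma, while 4.33% of all genes were (2.36% higher, 1.98% lower). At an unadjusted p under 0.05 there were 3, beside 2914 of all 16633 genes tested. They were Hk1, Slc16a1 and Cat, each of them higher with Pdx1. The median log2 fold change of the 10 genes was -0.02, against 0.03 for all genes tested. In alpha Pdx1 DT against alpha DT libraries, the count was again 0 of 10 (2.1% of all genes, 1.78% higher and 0.319% lower). Hk1 alone was under an unadjusted 0.05, beside 2738 of all genes tested. There the median was -0.44, against 0.00 for all genes tested. In neither comparison did a gene of the list pass as lower with Pdx1.

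**Figure D2:**
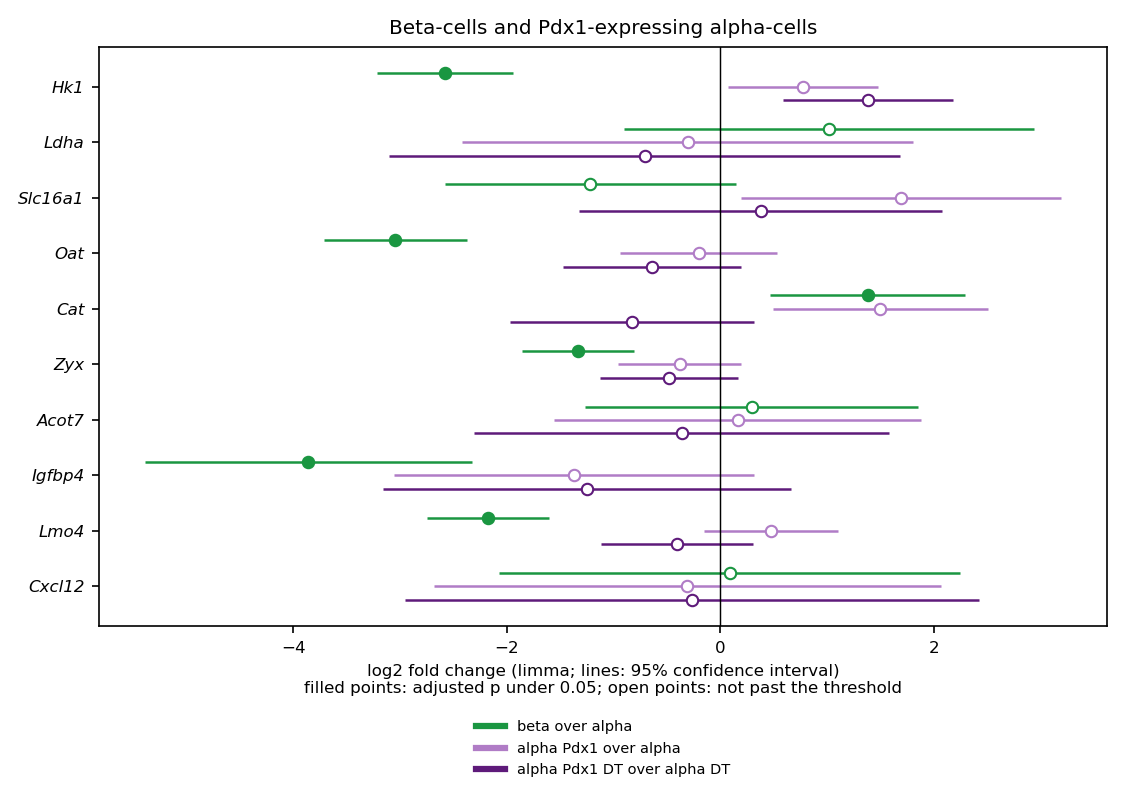
Log2 fold change (horizontal axis) of each gene (rows) in beta over alpha, alpha Pdx1 over alpha and alpha Pdx1 DT over alpha DT, as limma estimates with 95% confidence intervals; filled points passed an adjusted p of 0.05. Beta over alpha and alpha Pdx1 over alpha share the alpha libraries; the 6 filled points are all of beta over alpha, and Hk1 lies below 0 there and above 0 in both comparisons with Pdx1.

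The estimates for Hk1 with Pdx1 were positive, the opposite side from beta-cells. It had 9.37, 10.38 and 11.05 (lowest, median, highest) in alpha Pdx1 DT libraries. The alpha Pdx1 libraries had 10.56, 10.21, 9.92, 10.61 and 9.20, and the alpha DT libraries 9.52, 9.31, 8.37 and 8.45. All 6 alpha Pdx1 DT libraries were above the alpha DT mean and 5 were above the highest alpha DT library. Of the 5 alpha Pdx1 libraries, 4 were above the alpha mean.
The difference of alpha Pdx1 from alpha was 0.78 ± 0.35 (adjusted p = 0.224) and that of alpha Pdx1 DT from alpha DT was 1.39 ± 0.39 (adjusted p = 0.0541). Without the 5 libraries set apart both passed, at 1.11 (adjusted p = 0.0105) and 1.57 (adjusted p = 0.000906). The difference of alpha Pdx1 DT from alpha DT also passed without alpha Pdx1 DT 5 (1.57, adjusted p = 0.0154) and without alpha DT 1 (1.59, adjusted p = 0.0368). Alpha Pdx1 5, beta 1, beta 5, alpha 7 and alpha 8 are outside this comparison. Without any 1 of them the difference stayed at 1.39, and only its adjusted p moved (0.038 to 0.0484). The lowest Hk1 values of the Pdx1 groups, 9.20 and 9.37, were those of alpha Pdx1 5 and alpha Pdx1 DT 5.

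Averaged over both toxin states, 1 of the 10 genes was called, Hk1, with 8.65% of all genes called (5.54% higher, 3.11% lower). The median of the 10 genes was -0.19, against 0.01 for all genes tested. Hk1 was 1.08 ± 0.26 higher with Pdx1 (95% confidence interval 0.55 to 1.61, adjusted p = 0.00793). It passed in all 30 fits that left out 1 library (0.99 to 1.19) and in all 10 fits with another setting (0.98 to 1.34).

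Igfbp4 had 3.92, 6.78 and 8.50 (lowest, median, highest) in alpha Pdx1 DT libraries. In alpha Pdx1 libraries it had 6.63, 6.203, 6.46, 6.62 and 5.80, all below the alpha mean of 7.71, and in alpha DT libraries 8.91, 8.66, 6.97 and 7.82. The averaged difference was -1.31 ± 0.62 (adjusted p = 0.204), and it passed without the 5 libraries set apart at -1.61 (adjusted p = 0.0121). The highest alpha Pdx1 DT value, 8.50, was that of alpha Pdx1 DT 5 and the lowest alpha value, 4.87, that of alpha 8. The lowest alpha Pdx1 DT value, 3.92, was that of alpha Pdx1 DT 6, which stays in the fit without the 5. Of all libraries, alpha Pdx1 DT 6 had the fewest distinct values below the first quartile (32) and the highest floor (2.348).
Oat had 9.53, 9.77 and 10.38 in alpha Pdx1 DT libraries, and 10.43, 10.31, 10.08, 10.62 and 10.97 in alpha Pdx1 and 11.36, 10.52, 10.16 and 9.81 in alpha DT libraries. Its averaged difference was -0.42 ± 0.27 (adjusted p = 0.375), and -0.58 without the 5 (adjusted p = 0.0478). All 6 alpha Pdx1 DT libraries were below the alpha DT mean. The 95% interval of the difference of alpha Pdx1 from alpha, -0.94 to 0.53, did not reach the -3.04 of beta from alpha.

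**Figure D3:**
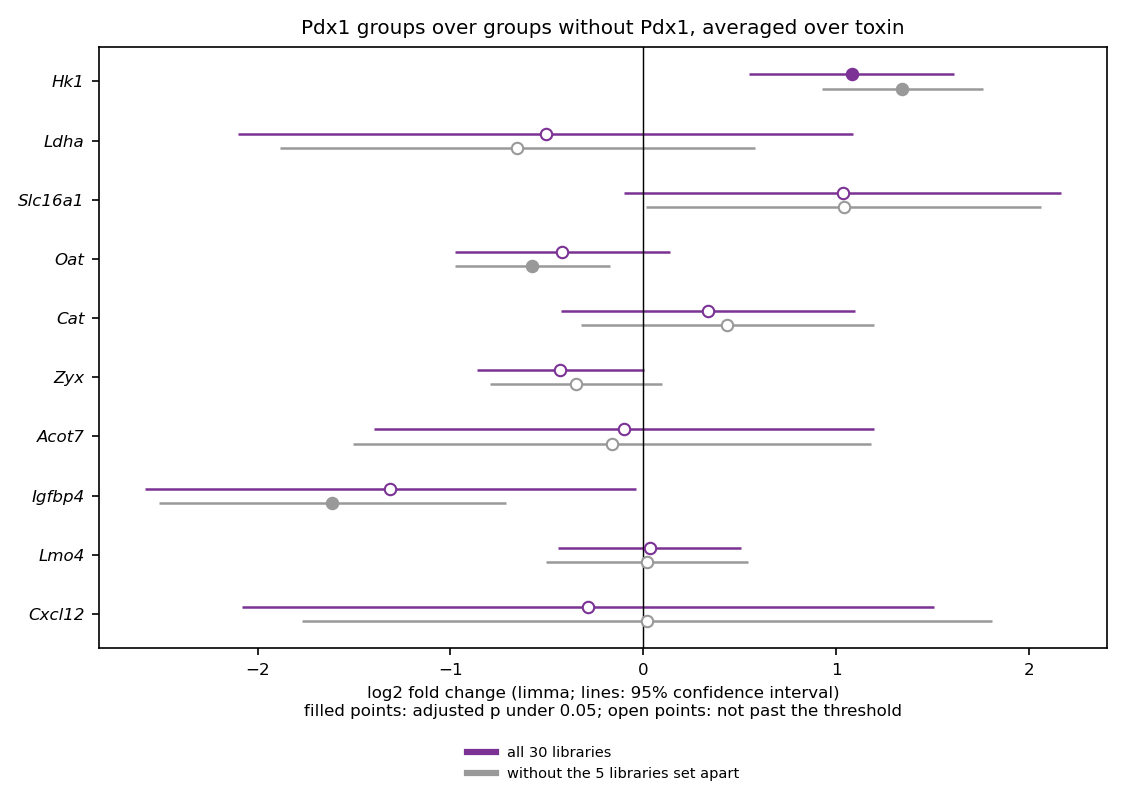
Log2 fold change (horizontal axis) with Pdx1, averaged over the toxin states, of each gene (rows) with all 30 libraries and without the 5 set apart, as limma estimates with 95% confidence intervals; filled points passed an adjusted p of 0.05. Hk1 passed in both fits (1.08 and 1.34), Oat (-0.58) and Igfbp4 (-1.61) only without the 5 libraries.

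Zyx and Lmo4, both lower in beta-cells, did not pass with Pdx1. Zyx had 8.42, 9.73 and 10.32 in alpha Pdx1 DT, 9.22, 8.58, 9.14, 8.56 and 8.61 in alpha Pdx1, and 10.44, 10.27, 10.45 and 9.26 in alpha DT libraries. Its differences were -0.38 ± 0.28 without toxin (adjusted p = 0.536) and -0.48 ± 0.32 with it (adjusted p = 0.468). Lmo4 had 6.36, 7.68 and 8.25 in alpha Pdx1 DT, 7.76, 8.50, 8.54, 9.03 and 8.50 in alpha Pdx1, and 7.66, 8.15, 8.43 and 7.39 in alpha DT libraries. Its differences were 0.47 ± 0.31 without toxin (adjusted p = 0.462) and -0.41 ± 0.35 with it (adjusted p = 0.591).

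Slc16a1 in alpha Pdx1 libraries, at 5.69, 6.40, 6.12, 5.76 and 6.998, was above the highest alpha library (5.67) in all 5. The difference of 1.69 ± 0.74 did not pass in the fit over all groups (adjusted p = 0.211) and passed when only these groups were fitted (adjusted p = 0.044). With toxin the gene had 2.35, 5.03 and 6.26 (lowest, median, highest) in alpha Pdx1 DT and 5.77, 3.32, 4.88 and 4.05 in alpha DT libraries, a difference of 0.38 ± 0.83 (adjusted p = 0.859).
Cat had 7.24, 7.85, 6.82, 7.84 and 7.70 in alpha Pdx1 libraries, all 5 above the alpha mean of 5.99, and the difference was 1.5 ± 0.50 (adjusted p = 0.078). Without alpha 1, the highest alpha library for Cat, it was 1.79 and passed (adjusted p = 0.0186). With toxin Cat lay at 5.32, 6.33 and 7.38 in alpha Pdx1 DT and had 6.95, 5.44, 7.91 and 8.42 in alpha DT libraries, a difference of -0.83 ± 0.56 (adjusted p = 0.478). The test of whether the Pdx1 difference depended on toxin gave -2.33 ± 0.75 for Cat (unadjusted p = 0.0038, adjusted p = 0.409). No gene of the 16633 passed that test after adjustment (0% called), 1527 did at an unadjusted p under 0.05, and Cat was the 1 gene of the list among them.

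Ldha, Acot7 and Cxcl12 differed with Pdx1 by -0.51 ± 0.78, -0.10 ± 0.64 and -0.29 ± 0.88 on average, with 95% intervals of -2.10 to 1.09, -1.40 to 1.196 and -2.08 to 1.51. Acot7 lay between 3.92 and 6.95 in alpha Pdx1 DT, 2.44 and 5.65 in alpha Pdx1, and 2.88 and 7.87 in alpha DT libraries. Cxcl12 lay between 1.44 and 7.80 in alpha Pdx1 DT, 1.85 and 7.14 in alpha Pdx1, and 2.68 and 7.69 in alpha DT libraries. The groups overlapped throughout, and the intervals are too wide to show whether the genes moved by 1 log2 unit.

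Levels of the ribosomal RNA gene Rn18s-rs5 and of other cell types' markers moved with some of these groups. Rn18s-rs5 lay between 16.90 and 18.27 in alpha Pdx1 libraries and between 17.68 and 20.54 in alpha libraries, and between 19.87 and 22.57 in alpha Pdx1 DT and 19.27 and 20.54 in alpha DT libraries. With Rn18s-rs5 as a covariate the averaged Hk1 difference passed. It also passed with the mean of the mesenchymal list, which includes Col1a2, the gene most like Hk1 over the 30 libraries. That mean lay between 5.84 and 7.81 in alpha Pdx1 DT, 4.78 and 8.17 in alpha Pdx1, 5.63 and 6.63 in alpha DT, 3.92 and 5.57 in beta, and 5.25 and 9.04 in alpha libraries. Group means of Rn18s-rs5 were 17.31 (alpha Pdx1), 19.29 (alpha), 20.99 (alpha Pdx1 DT) and 20.06 (alpha DT). Those of the mesenchymal list were 6.85, 7.07, 6.99 and 6.12 in the same order. Both were lower with Pdx1 without toxin and higher with it. They partly cancel in the averaged contrast, which limits how far these fits could move the averaged Hk1 difference. Of the 5 mesenchymal markers measured, 0 were called with Pdx1 on average and 3 were lower in beta than in alpha libraries. With their mean as a covariate, Igfbp4 no longer passed as lower in beta-cells (-2.17, adjusted p = 0.084), and Hk1, Oat, Zyx and Lmo4 passed. In the same fit Ldha passed as higher in beta-cells (3.27, adjusted p = 0.0309) and Cat no longer passed (1.48, adjusted p = 0.0864). The part of these cells in the values was not tested. In bulk libraries a smaller share of cells and less RNA per cell cannot be told apart.

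The Pdx1 groups were also set directly against beta-cells. The beta libraries are those that gave the calls against alpha-cells, so a gene called low in them will tend to come out higher here, and the values are given as a description of the remaining distance. In alpha Pdx1 against beta libraries 6 of the 10 were higher and 0 lower, with 32.9% of all genes called (16.7% higher, 16.2% lower). Hk1 was 3.35 ± 0.36 higher (adjusted p = 7.44e-09), Oat 2.84 ± 0.37 (adjusted p = 4.52e-07) and Lmo4 2.65 ± 0.32 (adjusted p = 6.87e-08), each without overlap of the groups. Slc16a1 was 2.91 ± 0.76 higher (adjusted p = 0.00337), Igfbp4 2.49 ± 0.85 (adjusted p = 0.0242) and Zyx 0.95 ± 0.29 (adjusted p = 0.0111). Igfbp4 no longer passed without any 1 of beta 2, beta 3 and beta 4 (2.21 to 2.24, adjusted p from 0.0524 to 0.054), nor with an offset on the linear scale (1.00, adjusted p = 0.162). It passed without the 5 libraries set apart (3.77, adjusted p = 3.97e-05). With Rn18s-rs5 as a covariate Slc16a1 (2.29, adjusted p = 0.164), Zyx (0.84, adjusted p = 0.193) and Igfbp4 (2.25, adjusted p = 0.256) no longer passed. With the mesenchymal mean these were lost as well (2.37, 0.78 and 0.95, adjusted p of 0.0683, 0.122 and 0.5), and Ldha passed as lower in alpha Pdx1 (-3.37, adjusted p = 0.0328, against -1.32 without the covariate), whereas Hk1, Oat and Lmo4 passed as higher in both. Markers of other cells differed beside these values. In alpha Pdx1 against beta libraries 5 of 7 leukocyte, 3 of 3 duct, 1 of 2 endothelial and 1 of 7 acinar markers tested were called lower, and 2 of 5 mesenchymal markers higher. The leukocyte mean lay between 4.07 and 5.55 in alpha Pdx1 and between 6.04 and 11.12 in beta libraries. The part of these markers in the values was not tested.

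In alpha Pdx1 DT against beta libraries 5 of the 10 were higher and 0 lower, with 26.3% of all genes called (12.9% higher, 13.4% lower). They were Hk1 (3.55 ± 0.34, adjusted p = 8.76e-10), Oat (2.18 ± 0.35, adjusted p = 1.46e-05), Zyx (1.76 ± 0.28, adjusted p = 7.76e-06), Igfbp4 (2.98 ± 0.81, adjusted p = 0.00595) and Lmo4 (1.68 ± 0.30, adjusted p = 5.66e-05). Slc16a1 differed by 1.60 ± 0.72 (adjusted p = 0.101), and passed without alpha Pdx1 DT 6 (2.10, adjusted p = 0.028) or without beta 1 (2.18, adjusted p = 0.0121). Ldha differed by 1.12 ± 1.01 (adjusted p = 0.455) and passed without beta 1 (2.10, adjusted p = 0.0476). Without the 5 libraries set apart both passed, Slc16a1 at 2.73 (adjusted p = 0.00358) and Ldha at 2.54 (adjusted p = 0.0234). Igfbp4 no longer passed with the mesenchymal mean as a covariate (1.35, adjusted p = 0.345).

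The group means of Hk1 were 10.30 ± 0.57 in alpha Pdx1 DT, 10.1 ± 0.57 in alpha Pdx1, 8.91 ± 0.59 in alpha DT, 6.75 ± 0.83 in beta and 9.32 ± 0.59 in alpha libraries (SD, n = 6, 5, 4, 7 and 8). In order of level, neighbouring groups lay closer than the sum of their SDs except alpha DT and beta, the lowest pair. Oat averaged 9.83 ± 0.32 in alpha Pdx1 DT, 10.48 ± 0.33 in alpha Pdx1, 10.46 ± 0.66 in alpha DT, 7.64 ± 1.12 in beta and 10.69 ± 0.53 in alpha libraries. There alpha Pdx1 DT stood next above beta, and this was again the only gap wider than the summed SDs. Igfbp4 averaged 6.84 ± 1.66 in alpha Pdx1 DT, 6.34 ± 0.35 in alpha Pdx1, 8.09 ± 0.88 in alpha DT, 3.86 ± 2.13 in beta and 7.71 ± 1.52 in alpha libraries. The gap between alpha Pdx1 and beta was about as wide as their summed SDs, and the other neighbours lay closer than that.

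Toxin was compared first in mice without added Pdx1. In alpha DT against alpha libraries 0 of the 10 genes were called (3.26% of all genes, 1.57% higher and 1.7% lower). Of the 10, 3 had an unadjusted p under 0.05 (3335 of all 16633 genes tested). These were Ldha (2.85 ± 1.11, adjusted p = 0.141), Zyx (0.90 ± 0.30, adjusted p = 0.0888) and Cat (1.19 ± 0.53, adjusted p = 0.203). Ldha had 6.35, 6.83, 8.08 and 7.64 in alpha DT libraries, all above the alpha mean of 4.37. Zyx passed without alpha DT 4, its lowest alpha DT library (1.18, adjusted p = 0.022). Without alpha Pdx1 DT 6, which is outside this comparison, the Zyx difference stayed at 0.90 and only its adjusted p moved (0.0466).

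In alpha Pdx1 DT against alpha Pdx1 libraries 0 of the 10 were called as well (9.22% of all genes, 4.83% higher and 4.39% lower). Of the 10, 4 had an unadjusted p under 0.05 (4439 of all 16633 genes tested). Ldha lay at 5.59, 6.25 and 7.85 in alpha Pdx1 DT and had 2.21, 3.09, 6.59, 4.18 and 4.28 in alpha Pdx1 libraries, a difference of 2.45 ± 1.10 (adjusted p = 0.147), which passed when only these groups were fitted (adjusted p = 0.0461). Zyx differed by 0.80 ± 0.30 (adjusted p = 0.0818) and passed without alpha Pdx1 DT 6 (1.04, adjusted p = 0.0281). Cat differed by -1.14 ± 0.53 (adjusted p = 0.158), the opposite sign to its difference without Pdx1. Lmo4 differed by -0.97 ± 0.33 (adjusted p = 0.0557) and passed without alpha Pdx1 DT 3 (adjusted p = 0.0364) or alpha Pdx1 1 (adjusted p = 0.0279). Without alpha DT 3 or alpha DT 4, which are outside this comparison, the Lmo4 difference was unchanged and only its adjusted p moved (0.0479 and 0.0467).

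**Figure D4:**
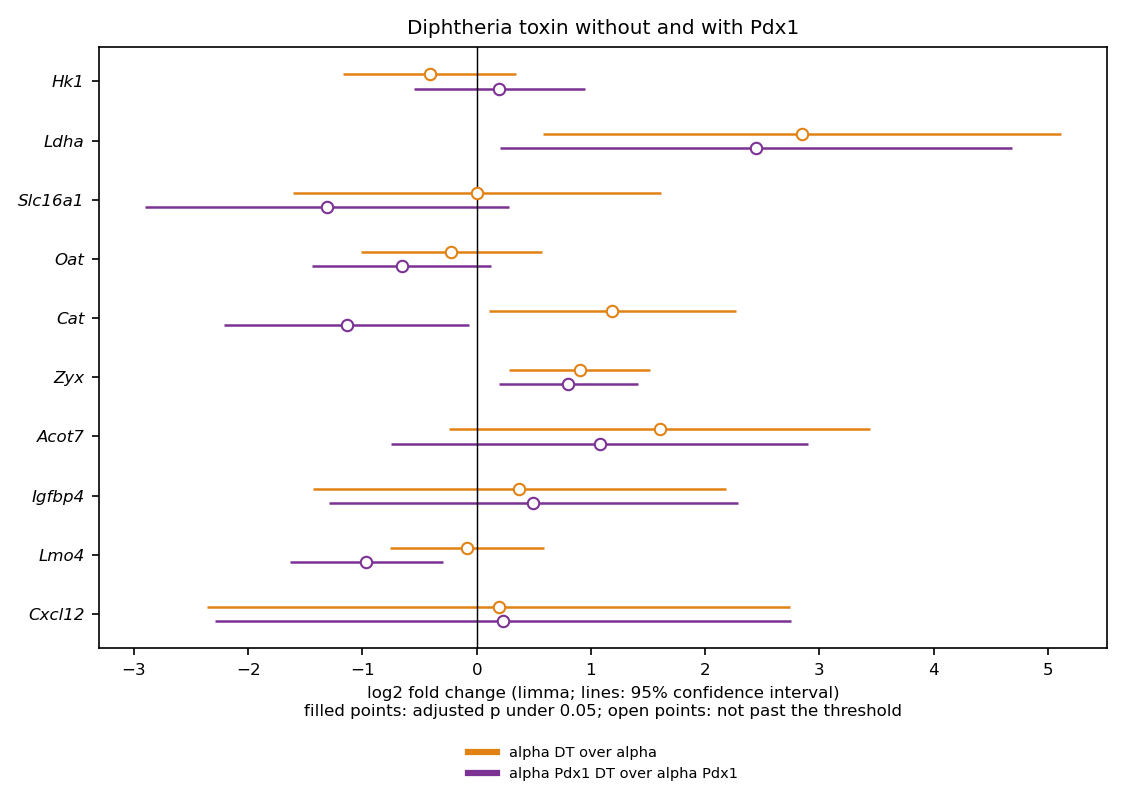
Log2 fold change (horizontal axis) of each gene (rows) with diphtheria toxin, in alpha DT over alpha and in alpha Pdx1 DT over alpha Pdx1, as limma estimates with 95% confidence intervals; open points did not pass an adjusted p of 0.05, and there are no filled ones. Ldha (2.85 and 2.45) and Zyx (0.90 and 0.80) lie above 0 in both, and Cat changes side (1.19 and -1.14).

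With toxin the estimates of Ldha and Zyx were positive in both comparisons and that of Cat changed side, none of them called. Markers of leukocytes moved with the toxin as well. The mean of the 7 listed markers lay between 7.66 and 11.39 in alpha DT and between 4.52 and 7.58 in alpha libraries, and between 4.95 and 10.73 in alpha Pdx1 DT and 4.07 and 5.55 in alpha Pdx1 libraries. In alpha DT against alpha 3 of the 7 were called, all higher (Csf1r, Lyz2 and Tyrobp), and in alpha Pdx1 DT against alpha Pdx1 2 of the 7 were called, both higher. The defining marker Ptprc, at 7.09 to 11.20 in alpha DT and 4.30 to 9.75 in alpha libraries, was not called (adjusted p = 0.294). Markers of other cells also differed without being called. The pancreatic polypeptide gene Ppy lay between 17.92 and 18.63 in alpha DT and between 14.97 and 17.92 in alpha libraries (2.12 ± 0.79, adjusted p = 0.128). At an unadjusted p under 0.05 in alpha DT against alpha were 3 of 3 duct, 1 of 2 endothelial and 1 of 3 delta-cell markers (3335 of all 16633 genes tested). The duct markers were split, with Krt19 (-1.97) and Krt7 (-0.90) lower and Sox9 (2.58) higher. The endothelial marker Pecam1 (2.86) and the delta-cell marker Sst (2.12) were higher. In alpha Pdx1 DT against alpha Pdx1 the median over the 7 acinar markers was 3.49, with 2 under that p (4439 of all genes) and 0 called. No value in the table is 0. The part of these markers in the values of the disallowed genes was not tested.

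Alpha Pdx1 DT against alpha libraries gives Pdx1 and toxin together, with 0 of the 10 genes called (7.81% of all genes, 4.06% higher and 3.75% lower). Of the 10, 3 had an unadjusted p under 0.05 (4409 of all 16633 genes tested). Hk1 differed by 0.97 ± 0.33 (adjusted p = 0.0594), Oat by -0.86 ± 0.34 (adjusted p = 0.105) and Ldha by 2.14 ± 0.98 (adjusted p = 0.159). Without the 5 libraries set apart 3 genes passed: Hk1 at 1.27 (adjusted p = 0.000884), Oat at -1.05 (adjusted p = 0.00352) and Igfbp4 at -1.61 (adjusted p = 0.0402). Hk1 also passed without any 1 of alpha Pdx1 DT 5, alpha 7 and alpha 8 (1.09 to 1.16, adjusted p from 0.014 to 0.0383). Without beta 1, which is outside this comparison, the differences of Hk1 and Oat were unchanged. Only their adjusted p-values moved (0.0444 and 0.0442).

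A further 21 genes named elsewhere as disallowed were listed beside the 10, of which 19 have a row in the table and 18 were tested. In beta against alpha libraries 4 of the 18 were lower and 1 was higher, beside 17.6% and 16.9% of all genes tested, with a median log2 fold change of -0.80. Fcgrt, the neonatal Fc receptor, was lower by 2.73 on the log2 scale (-2.73 ± 0.63, adjusted p = 0.000827). The Hippo pathway co-activator Yap1 (-2.51 ± 0.46, adjusted p = 5.83e-05), Fam13a (-2.10 ± 0.42, adjusted p = 0.000191) and Rest, a repressor of neuronal genes that islet cells keep off (-1.60 ± 0.48, adjusted p = 0.00921), were also lower; Rest was outside the rule for named genes and was chosen after its values were seen. C1qbp, a mitochondrial matrix protein, was higher (0.61 ± 0.18, adjusted p = 0.00653). With Pdx1, 0 of the 18 were called by limma in alpha Pdx1 against alpha (4.33% of all genes), in alpha Pdx1 DT against alpha DT (2.1%), or on average (8.65%). At an unadjusted p under 0.05 there were 1, 2 and 2, beside 2914, 2738 and 3808 of all 16633 genes tested. On average the median was -0.32. Rest differed by 0.03 ± 0.40 on average (adjusted p = 0.974) and Yap1 by -0.47 ± 0.39 (adjusted p = 0.498).

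**Figure D5:**
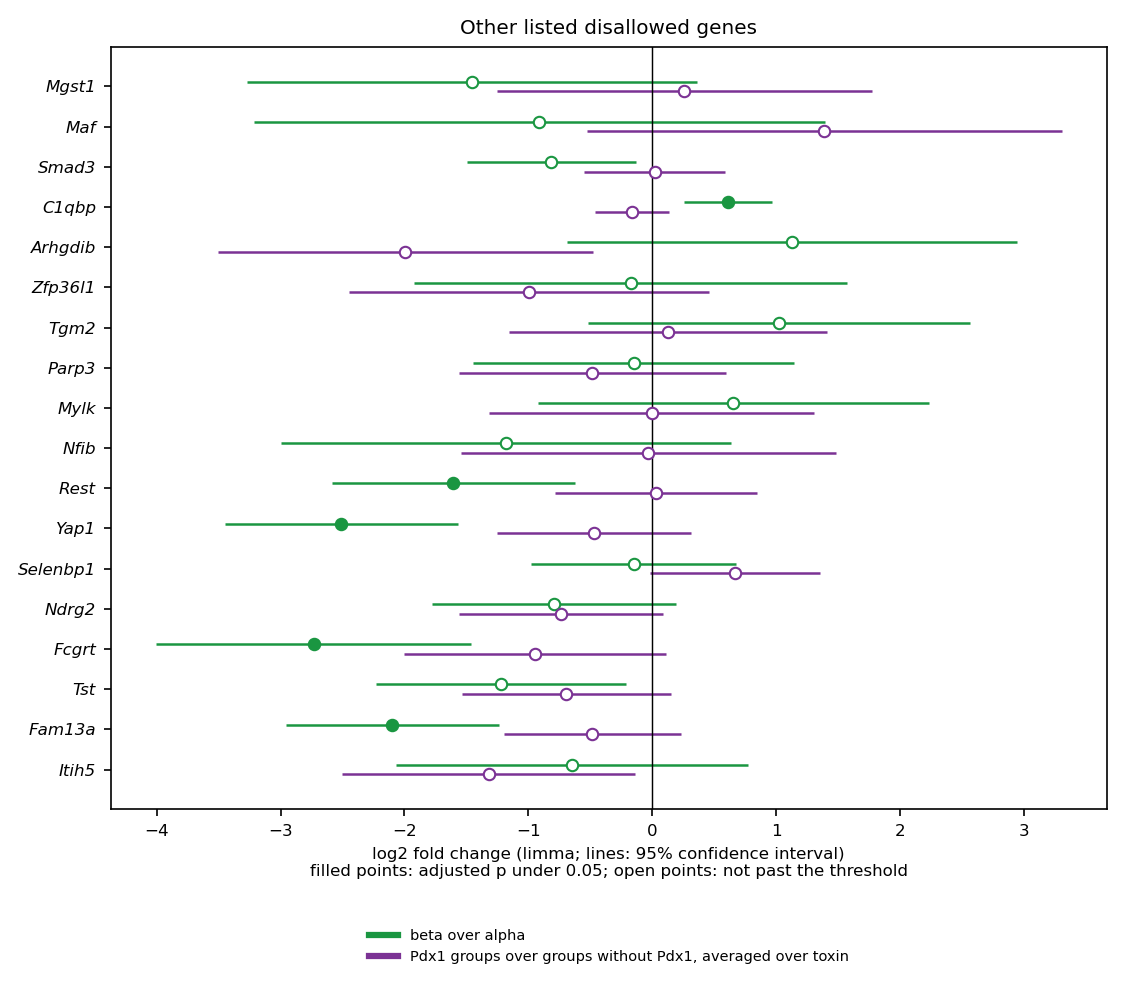
Log2 fold change (horizontal axis) of the 18 other disallowed genes tested (rows) in beta over alpha and with Pdx1 averaged over the toxin states, as limma estimates with 95% confidence intervals; filled points passed an adjusted p of 0.05. The alpha libraries are in both comparisons; Rest, Yap1, Fcgrt and Fam13a are filled below 0 and C1qbp above 0 in beta over alpha, and no point is filled with Pdx1.

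Enzymes, receptors and carriers that work beside the 10 genes were listed as 58 partner genes, of which 51 have a row and 50 were tested. In beta against alpha libraries 13 of the 50 were higher and 8 lower, beside 16.9% and 17.6% of all genes tested, with a median of 0.21. The highest were the growth factor Igf2 (2.81 ± 0.40, adjusted p = 1.14e-06), the LIM homeobox gene Lhx1 (2.64 ± 0.36, adjusted p = 3.96e-07) and the receptor Igf1r (1.81 ± 0.22, adjusted p = 5.21e-08). The lowest were the peroxiredoxin Prdx4 (-2.22 ± 0.32, adjusted p = 1.65e-06), the thioesterase Acot1 (-1.87 ± 0.31, adjusted p = 1e-05) and Igfbp7 (-1.48 ± 0.30, adjusted p = 0.000272).

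With Pdx1 averaged over toxin 3 of the 50 partners were higher and 1 lower, beside 5.54% and 3.11% of all genes, with a median of -0.04. Those higher included the actin crosslinker Actn4 (0.49 ± 0.14, adjusted p = 0.0221) and the LIM-only gene Lmo3 (2.53 ± 0.67, adjusted p = 0.0171). Glud1, the dehydrogenase that takes glutamate, a product of Oat, to alpha-ketoglutarate, was lower (-0.62 ± 0.13, adjusted p = 0.00175) and was lower in beta than in alpha libraries too (-0.55 ± 0.15, adjusted p = 0.00477). In alpha Pdx1 against alpha libraries Lmo3 (3.62 ± 0.89, adjusted p = 0.0164) was higher and Glud1 (-0.72 ± 0.17, adjusted p = 0.0112) lower. Lmo3 had a median of 8.53 in alpha Pdx1 DT, 8.20 in alpha Pdx1, 6.44 in alpha DT, 4.34 in beta and 4.02 in alpha libraries, and in beta against alpha libraries it differed by 0.17 ± 0.81 (adjusted p = 0.898). In alpha Pdx1 DT against alpha DT libraries the thioesterase Acot9 alone was called, as lower (-1.68 ± 0.45, adjusted p = 0.0397).

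The genes whose log2 values ran most like each member over the 30 libraries were found by Pearson's r, as a description, since the libraries share groups. For Hk1 they were Col1a2 (r = 0.95) and Mctp2 (r = 0.95), and for Oat Sema3e (r = 0.95) and Cdh9 (r = 0.94). Col1a2 belongs to the mesenchymal list whose mean was the covariate above. It was 4.23 ± 0.36 lower in beta than in alpha libraries (log2 fold change -4.23, adjusted p = 8.9e-11), and with Pdx1 it differed by 0.89 ± 0.30 (adjusted p = 0.0577). Igfbp4 ran most like Avpr1b (r = 0.90) and Efnb2 (r = 0.89), Zyx like Rtn1 (r = 0.90) and Col27a1 (r = 0.89), and Lmo4 like Klf4 (r = 0.90) and Fos (r = 0.89). Ldha ran most like Ifitm3 (r = 0.87) and Vim (r = 0.85). Weaker likeness was found for Slc16a1, to Fat4 (r = 0.82) and Olfm3 (r = 0.78), for Cat, to Man1a2 (r = 0.76) and Fam134b (r = 0.74), for Acot7, to Lgals1 (r = 0.74) and Stmn2 (r = 0.70), and for Cxcl12, to Grem1 (r = 0.73) and Dsc3 (r = 0.68). Among the 10 genes themselves the closest pair was Oat and Lmo4 (r = 0.87 over the 30 libraries), with r = 0.48 once each library was set against its group mean.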

How the data were processed

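The 30 libraries are bulk RNA-seq of islet cells sorted by flow cytometry, with RNA from the RNeasy Micro kit and cDNA from the QuantiTect kit, per the labels' protocols. The submitters' processing notes name GSNAP and the build GRCm38. Not given in the sources used here are the counting rule, any use of strand and the read totals. Deposited log2 values cover 17775 genes, and their sorted values nearly coincide between libraries, as quantile normalization leaves them. The values carry no counts, so no count test was run.

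A gene was tested if it reached a log2 value of 5 in 4 or more libraries; 16633 genes did and 1142 did not. From there, limma 3.58.1 (R 4.3.3) fitted a mean for each group to all 30 libraries at once, using trended and robust empirical Bayes variances. Tests were two-sided, and Benjamini-Hochberg adjustment was done within each contrast, with calls at 0.05 and intervals at 95%. The averaged Pdx1 contrast is the mean of alpha Pdx1 minus alpha and alpha Pdx1 DT minus alpha DT. The fit was first tested on simulated data. Alternatives were a stricter filter and none, an offset of 32 on the linear scale, plain variances, library weights, fitting only the groups compared, scaling to 9 housekeeping genes, Rn18s-rs5 or the mesenchymal mean as a covariate, and leaving out 1 library or the 5 set apart. Promoter sequences are RefSeq's and gene positions GENCODE's, both on GRCm38.

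The 10 genes, the other lists, the 5 libraries set apart and the rule for named genes were chosen with earlier results of these data known. The rule names all 10 members, up to 3 highest and 3 lowest called genes of each other list in beta against alpha, every listed gene called with Pdx1, and the 2 genes most like each member. Listed genes without a row are not analysed here. A partner gene that the rule names is not reported here.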

Additional observations from a re-analysis of the deposited data

Results flagged for a closer look

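In 8 of the 50 sets of values looked at (10 genes in 5 groups), 1 library stood apart from the rest of its group by Dixon's criterion at 95%; chance alone flags about 5% of such sets. Library beta 1 stood high for Ldha (11.27, next 6.03), Cat (9.44, next 7.29) and Zyx (8.90, next 8.11). Cat was also high in alpha 1 (8.01, next 6.46). Zyx was low in alpha DT 4 (9.26, next 10.27). Acot7 was low in alpha Pdx1 DT 6 (3.92, next 5.84), in alpha Pdx1 2 (2.44, next 5.11) and in alpha DT 4 (2.88, next 7.08). In alpha Pdx1 DT 6 Igfbp4 had the same value as Acot7, 3.92. The causes were not tested.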

How the results depend on the processing

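No paired analysis was possible because the labels give no replicate numbers that groups share. Over the 10 genes and 10 contrasts, no called value changed sign. Leaving out 1 library kept 2972 of the results on their side of the threshold, brought 24 past it and lost 4; the other 10 settings kept 943, brought 35 past it and lost 12. Slc16a1 was not tested under the stricter filter.

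Of the 10 genes, counts called moved as follows, with smaller shifts in the comparisons with beta libraries left out. In alpha Pdx1 against alpha (0), 1 was called with library weights, with only these groups fitted, and without the 5 libraries set apart. The offset and leaving out the 5 each gave 1 in alpha Pdx1 DT against alpha DT (0). With Pdx1 averaged (1), 3 were called without the 5. For alpha Pdx1 DT against alpha (0), 1 was called with the offset, 2 with weights, 2 with housekeeping scaling and 3 without the 5. In alpha DT against alpha (0), 1 was called with the mesenchymal covariate. For alpha Pdx1 DT against alpha Pdx1 (0), 1 was called with the offset, with plain variances, with only these groups and with the mesenchymal covariate, 2 with housekeeping scaling and 3 with weights. In alpha Pdx1 against beta (6), 3 were called with Rn18s-rs5 as a covariate, and in alpha Pdx1 DT against beta (5), 8 with weights. Leaving out 1 library gave 6 to 6 in beta against alpha, 0 to 1 in alpha Pdx1 against alpha, 0 to 1 in alpha Pdx1 DT against alpha DT, 1 to 1 with Pdx1 averaged, 0 to 2 in alpha Pdx1 DT against alpha, 0 to 1 in alpha DT against alpha, 0 to 1 in alpha Pdx1 DT against alpha Pdx1, 5 to 6 in alpha Pdx1 against beta, 5 to 7 in alpha Pdx1 DT against beta and 0 to 0 in the interaction.

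Over all genes, library weights gave 9375 calls in beta against alpha (5734 in the reported fit), 3110 in alpha Pdx1 against alpha (721), 32 in alpha Pdx1 DT against alpha DT (349), 3519 in alpha Pdx1 DT against alpha (1299), 208 in alpha DT against alpha (543), 3769 in alpha Pdx1 DT against alpha Pdx1 (1534), 9323 in alpha Pdx1 against beta (5464), 6881 in alpha Pdx1 DT against beta (4371) and 1 in the interaction (0). Fitting only the groups compared gave 0 in alpha Pdx1 DT against alpha DT, 940 with Pdx1 averaged (1439), 0 in alpha Pdx1 DT against alpha, 66 in alpha DT against alpha and 904 in alpha Pdx1 DT against alpha Pdx1. Without the 5 libraries there were 1099 in alpha Pdx1 against alpha, 953 in alpha Pdx1 DT against alpha DT, 2243 with Pdx1 averaged and 3371 in alpha Pdx1 DT against alpha. With Rn18s-rs5 there were 114 in alpha Pdx1 against alpha, 190 in alpha Pdx1 DT against alpha DT, 0 in alpha Pdx1 DT against alpha, 295 in alpha DT against alpha, 0 in alpha Pdx1 DT against alpha Pdx1 and 1907 in alpha Pdx1 against beta. With the mesenchymal mean there were 3175 in beta against alpha, 3159 in alpha Pdx1 against beta and 2563 in alpha Pdx1 DT against beta.

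Housekeeping scaling gave 9676 calls in beta against alpha, 176 in alpha Pdx1 DT against alpha DT, 4840 in alpha Pdx1 DT against alpha (334 higher and 4506 lower, against 676 and 623), 1684 in alpha DT against alpha (173 and 1511, against 261 and 282) and 3340 in alpha Pdx1 DT against alpha Pdx1 (391 and 2949, against 804 and 730). It moved the median of all genes by -0.45, -0.37 and -0.40 in the last 3 of these, by -0.12 in alpha Pdx1 DT against alpha DT, and by 0.62 and 0.21 in alpha Pdx1 and alpha Pdx1 DT against beta.

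Leaving out 1 library gave 5103 to 6053 calls in beta against alpha, 301 to 985 in alpha Pdx1 against alpha (lowest without alpha Pdx1 4), 138 to 930 in alpha Pdx1 DT against alpha DT (without alpha DT 3 and alpha Pdx1 DT 5), 1014 to 2090 with Pdx1 averaged, 307 to 3487 in alpha Pdx1 DT against alpha (without alpha Pdx1 DT 6 and alpha Pdx1 DT 5), 306 to 1078 in alpha DT against alpha (without alpha 2 and alpha DT 4), 563 to 2558 in alpha Pdx1 DT against alpha Pdx1 (without alpha Pdx1 5 and alpha Pdx1 DT 5), 4410 to 5826 in alpha Pdx1 against beta, 3743 to 4680 in alpha Pdx1 DT against beta and 0 to 3 in the interaction. The causes were not tested. Depth cannot be read from the table, so the precision of genes such as Slc16a1, Acot7 and Cxcl12 rests on the spread between libraries alone.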
